A study of Homo sapiens with 24 samples.

Results

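The comparison was between OE33 xenografts grown in mice on a high-fat diet (HFD group) and OE33 xenografts grown in mice on a normal diet (ND group). OE33 is a human line derived from an esophageal adenocarcinoma. The members were the 6 libraries whose titles carry the HFD or ND name, 3 per group, out of 24 libraries in the study, and all 61860 human gene identifiers in their count table. Both groups were male BALB/c-nu mice, a strain that lacks a thymus and with it most T cells, and were 4 weeks old when they were obtained. They ate a diet with 35% fat (HFD) or 4.3% fat (ND) for 8 weeks, and then OE33 cells were injected under the skin of the back. The tumors grew for 21 days while the same diets continued. The diets also differed in carbohydrate and protein. The paper's methods further mention body weights of the HFD mice above a cutoff set from the ND group. All tumors came from a single cell line under the skin rather than in the esophagus, and no source states whether each library came from its own mouse, so p-values measure the spread between these libraries. Because the samples were whole tumors, fewer cells of a type and less RNA per cell cannot be told apart. TRIM15, IL1A, IL1B, IL6 and the neighbouring SERPINB3 and SERPINB4, which were all higher in the HFD group, are left aside here.

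Epithelial tumor cells answer inflammatory signals mainly through NF-kB, a family of transcription factors held in the cytoplasm by inhibitor proteins until receptors for interleukin-1 or tumor necrosis factor, or for microbial products, activate a kinase that removes them. Its target genes include chemokines that attract neutrophils, cytokines, acute-phase proteins and the inhibitors that later end the response. Adenocarcinomas of the lower esophagus usually arise from columnar epithelium of gastric and intestinal type, whereas the normal esophagus is lined by squamous epithelium with its own keratins and protease inhibitors.

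Within the list of chemokine ligands, which leaves out PPBP, the 3 genes with the largest increase in the HFD group were CXCL5, CXCL6 and CXCL3, ligands of the neutrophil receptor CXCR2 that lie together on chromosome 4. Their promoters were chosen by the size of the increase, and each holds an NF-kB motif close to the start site. The windows run from 250 bases before to 50 bases after the RefSeq start on GRCh38.p14, 5′ to 3′ on the strand of the gene, and capitals mark the motif GGANTTTCC.
CXCL5, chr4:73998628-73998927, minus strand: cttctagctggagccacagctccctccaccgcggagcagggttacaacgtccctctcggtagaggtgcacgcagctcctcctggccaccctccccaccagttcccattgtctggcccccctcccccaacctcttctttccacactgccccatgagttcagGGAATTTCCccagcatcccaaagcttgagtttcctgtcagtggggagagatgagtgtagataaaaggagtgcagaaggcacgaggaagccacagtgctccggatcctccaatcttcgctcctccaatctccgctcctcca
CXCL6, chr4:73836428-73836727, plus strand: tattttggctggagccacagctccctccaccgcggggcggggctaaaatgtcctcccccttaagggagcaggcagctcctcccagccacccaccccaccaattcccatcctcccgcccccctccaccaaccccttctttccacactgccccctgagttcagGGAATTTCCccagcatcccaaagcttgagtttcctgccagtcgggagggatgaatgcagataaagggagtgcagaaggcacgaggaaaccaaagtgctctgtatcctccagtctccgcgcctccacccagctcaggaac
CXCL3, chr4:74038640-74038939, minus strand: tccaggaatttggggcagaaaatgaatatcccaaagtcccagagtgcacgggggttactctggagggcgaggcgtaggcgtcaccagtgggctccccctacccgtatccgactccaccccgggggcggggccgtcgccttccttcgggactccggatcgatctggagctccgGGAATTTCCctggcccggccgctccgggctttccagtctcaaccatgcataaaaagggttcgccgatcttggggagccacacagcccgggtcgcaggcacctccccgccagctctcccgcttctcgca

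The motif began 90 bases before the start in CXCL5, 89 in CXCL6 and 78 in CXCL3. Searched on both strands, GGANTTTCC was present in 1.64% of the 35116 promoters of this length, and in 8 of the 11 tested chemokine genes that have an entry, namely CXCL1, CXCL2, CXCL3, CXCL5, CXCL6, CXCL8, CXCL10 and CXCL11. The AP-1 motif TGACTCA was present in 2 of these 11 against 4.95% of all promoters, and the TATA box TATAAA in 3 of 11 against 11.53%. Neither occurred in the windows printed above, so no motifs overlapped there. A match is a description of the sequence and says nothing about binding in these tumors.

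Total counts per library lay between 19053958 and 39545549 in the HFD group and between 20760355 and 45994561 in the ND group, and 17012 genes had enough counts to be tested. The variation between replicates was small, with a biological coefficient of variation of 3.88% in edgeR. The 6 OE33 epithelial markers fixed for this purpose, among them KRT19, EPCAM and ERBB2, all had at least 1 CPM, the counts-per-million unit scaled here by TMM factors. Of 129 markers in 11 lists of other cell types, counted on human identifiers, 111 had a mean below 1 CPM and 28 had no count in any library. Markers of T and NK cells summed to between 15.1 and 15.5 CPM in the HFD group and between 7.74 and 8.93 CPM in the ND group, nearly all IL7R, and those of B cells to between 16.2 and 18.5 CPM and between 26.3 and 27.5 CPM, mostly CD22. The sums for endothelium, pericytes, skeletal muscle and erythroid cells were 47.3 to 52.9, 209 to 211, 31.5 to 32.9 and 0.263 to 0.437 CPM in the HFD group and 40.2 to 45.2, 171 to 189, 32.7 to 34.5 and 0.15 to 0.377 CPM in the ND group. No source states how reads of the mouse host were treated, so the mouse cells of the tumors were not measured.

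At an adjusted p under 0.05 in edgeR's quasi-likelihood test, the HFD group was higher in 25.6% of the tested genes and lower in 23.9%, so that a call by itself was common. The direction split depends on scaling, since 51.7% of the calls were in the higher direction with TMM factors, 39.8% with upper-quartile scaling and 30.4% with total counts. Most differences were small. The median absolute log2 fold change of the called genes was 0.34, and 75.8% of them differed by less than 1.5-fold. Differences of 2-fold or more were called for 208 genes in the higher direction, 1.22% of those tested, and for 444 in the lower direction, 2.61%. The direction of the large differences went with the level of the gene. Among genes averaging 100 CPM or more, 17 were at least 2-fold higher and 2 at least 2-fold lower, while among genes with a mean below 1 CPM, 57 were higher and 261 lower by this measure. The plot of level against change shows this asymmetry.

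**Figure D1:**
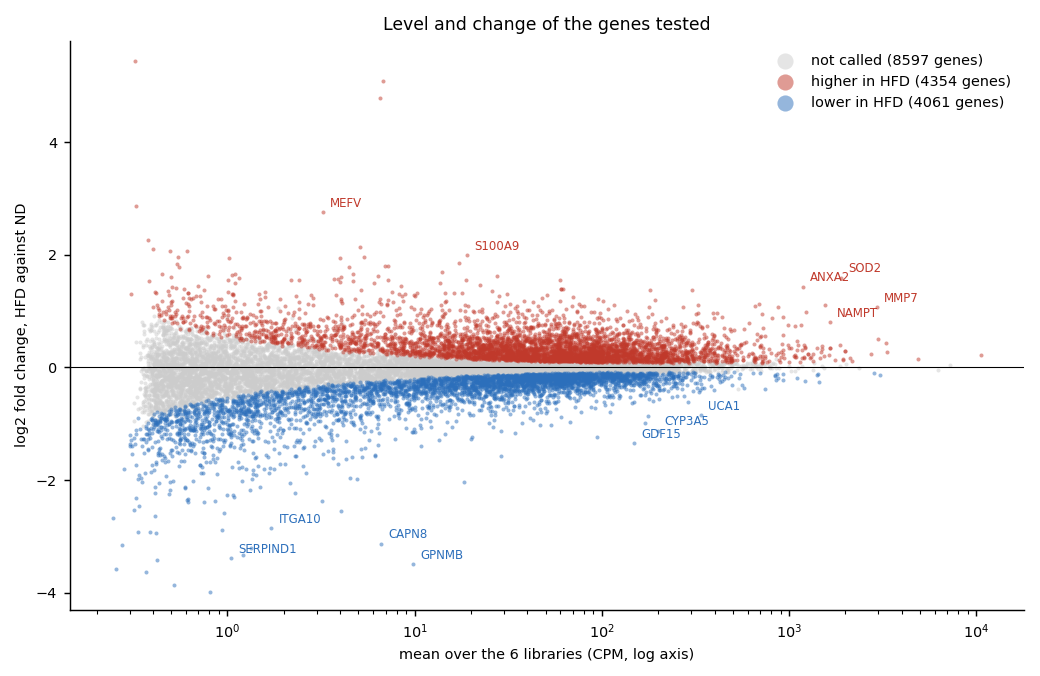
Each point is a tested gene, with its mean over the 6 libraries in CPM on a log axis and its log2 fold change of the HFD group against the ND group on the linear axis. MMP7, SOD2 and NAMPT, at more than 1000 CPM, lie well above the zero line, while FTH1 and NEAT1, also above that level, lie slightly below it. The largest decreases, such as GPNMB and SERPIND1, lie at low levels.

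The genes that took the most reads among those higher by at least 1.5-fold were MMP7, SOD2, F3, NAMPT, TNFAIP3, ANXA2, EREG and GPRC5A. MMP7 encodes matrilysin, an epithelial metalloproteinase that cleaves matrix and cell surface proteins, and had 4020, 4120 and 3820 CPM in the HFD replicates against 1980, 1830 and 1900 CPM in the ND replicates. SOD2, the mitochondrial superoxide dismutase and a known NF-kB target, had 2860, 2810 and 2880 CPM in the HFD group against 960, 927 and 945 CPM in the ND group. Its identifier carries this name in GENCODE 29. The groups were far apart for both genes, with a log2 fold change of 1.07 ± 0.037 (SE) for MMP7 (adjusted p = 1.72e-12) and 1.59 ± 0.031 for SOD2 (adjusted p = 7.25e-15). F3, tissue factor, which starts blood coagulation, was 2.15-fold higher, with 2130 ± 23.1 CPM (SD, n = 3) against 992 ± 35.8 CPM. NAMPT, the rate-limiting enzyme of NAD salvage that is also secreted as visfatin, was 1.74-fold higher. TNFAIP3, also called A20, an enzyme that ends NF-kB signaling, was 1.98-fold higher. ANXA2, a membrane-binding protein that assembles plasmin generation at the cell surface, had 640 ± 4.25 CPM in the ND group and was 2.69-fold higher in the HFD group. Its near-identical pseudogene ANXA2P2 was 2.94-fold higher, and reads may have been split between them, so their separate values are uncertain. EREG, a ligand of the EGF receptor, and GPRC5A, an orphan receptor of epithelia, were 1.69-fold and 1.67-fold higher.

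The genes that took the most reads among those lower by at least 1.5-fold were UCA1, FER1L4, CYP3A5, SLC6A6, SLC5A3, GULP1, GDF15 and CLCN3. GDF15, a stress-induced hormone of the TGF-beta family, had 82.1, 87.8 and 83.9 CPM in the HFD replicates and 212, 223 and 207 CPM in the ND replicates. CYP3A5, a drug-metabolizing cytochrome P450, had 126, 127 and 121 CPM against 278, 262 and 275 CPM. Both groups were separate for these genes, with a decrease of 2.54-fold for GDF15 (adjusted p = 5.94e-13) and 2.18-fold for CYP3A5 (adjusted p = 1.34e-12), and they were the 2 genes above 100 CPM that were at least 2-fold lower. The long non-coding RNA UCA1 was 1.81-fold lower, with 241 ± 23.1 CPM against 436 ± 27.7 CPM. SLC6A6 and SLC5A3, the transporters of the osmolytes taurine and myo-inositol, were 1.52-fold and 1.83-fold lower. GULP1, an adaptor for the uptake of dead cells, was 1.98-fold lower, the chloride/proton exchanger CLCN3 1.53-fold, and the transcribed pseudogene FER1L4 1.54-fold.

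The 12 largest increases were taken from genes averaging 1 CPM or more whose groups did not overlap, without the genes left aside. They were found in MEFV, S100A9, L1CAM, ACTBL2, C1R, ANXA8L1, PIK3AP1, GCKR, CNGB1, RPL39P5, C1S and ADAMTS9. Non-overlapping groups were common in this comparison, at 56.2% of tested genes. MEFV encodes pyrin, an inflammasome sensor whose mutations cause familial Mediterranean fever, and had 5.61, 5.79 and 5.46 CPM in the HFD group against 0.937, 0.795 and 0.744 CPM in the ND group. S100A9, a subunit of the neutrophil and keratinocyte alarmin calprotectin, had 29.6, 30.6 and 31.1 CPM against 7.50, 7.43 and 8.28 CPM. This is a 6.77-fold difference for MEFV (log2 fold change 2.76 ± 0.14, adjusted p = 2.04e-10) and a 3.97-fold difference for S100A9 (1.99 ± 0.067, adjusted p = 1.38e-12). The partner of S100A9, S100A8, was also called higher but stayed below 1 CPM, at 0.643 ± 0.174 CPM against 0.162 ± 0.0649 CPM. S100A9 is itself a neutrophil marker, and the 12 neutrophil markers summed to between 30.7 and 32.0 CPM in the HFD group and between 7.70 and 8.65 CPM in the ND group, nearly all of it S100A9. The list members ELANE, CEACAM8 and MMP8 had no count in any library. These counts are on human identifiers, so neutrophils of the mouse host were not measured.

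The neighbouring genes C1R and C1S on chromosome 12 encode the proteases that start the classical complement cascade. C1R had 12.4, 10.8 and 10.3 CPM in the HFD group against 2.77, 3.47 and 3.26 CPM in the ND group, and C1S 9.96, 10.0 and 9.08 CPM against 3.26, 3.08 and 2.98 CPM. Every HFD library lay above every ND library, and the differences were 3.47-fold and 3.10-fold. PIK3AP1, an adaptor that links receptors to PI3 kinase, was 3.22-fold higher, and ADAMTS9, a secreted protease of versican and other proteoglycans, 3.07-fold. L1CAM, an adhesion molecule of nerve cells that many carcinomas express, was 3.89-fold higher. The 8 Schwann cell markers, of which L1CAM is one, summed to between 86.9 and 91.7 CPM in the HFD group and between 66.1 and 67.3 CPM in the ND group, mostly MBP, and S100B had no count in any library. GCKR, the inhibitor of glucokinase, was 3.16-fold higher. ANXA8L1 was 3.45-fold higher and its near-identical copy ANXA8 2.92-fold, so reads shared between them make each value uncertain. The same holds for ACTBL2, an actin-like gene, at 3.86-fold, and for the ribosomal protein pseudogene RPL39P5 at 3.12-fold. CNGB1, a channel subunit, was 3.15-fold higher at 1.65 ± 0.324 CPM against 0.558 ± 0.0956 CPM.

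**Figure D2:**
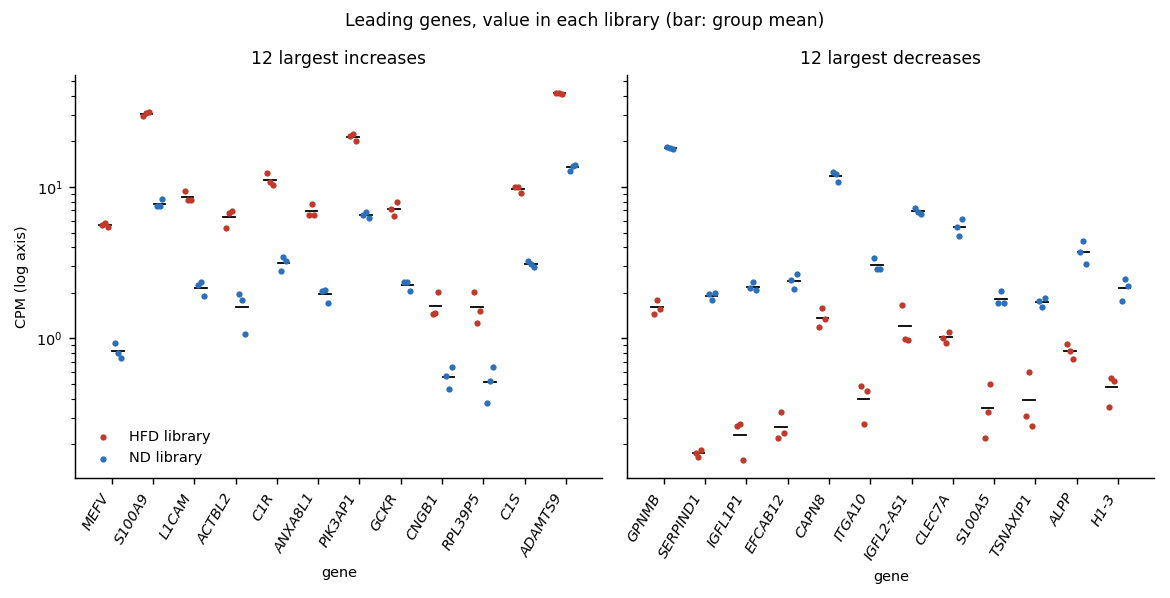
Points are the CPM of single libraries on a log axis and bars the group means, for the 12 largest increases on the left and the 12 largest decreases on the right. In none of the 24 genes did the 3 HFD libraries overlap with the 3 ND libraries, which the choice of genes required.

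The 12 largest decreases were found in GPNMB, SERPIND1, IGFL1P1, EFCAB12, CAPN8, ITGA10, IGFL2-AS1, CLEC7A, S100A5, TSNAXIP1, ALPP and H1-3. GPNMB, a glycoprotein of lysosomes and melanosomes that follows the MITF family of transcription factors, had 1.45, 1.80 and 1.57 CPM in the HFD group against 18.4, 18.0 and 17.7 CPM in the ND group. CAPN8, a calpain protease of gastric mucus cells, had 1.18, 1.58 and 1.34 CPM against 12.6, 12.1 and 10.8 CPM. These decreases of 11.3-fold (log2 fold change -3.50 ± 0.10, adjusted p = 4.91e-13) and 8.74-fold (-3.13 ± 0.12, adjusted p = 7.19e-12) exceeded the largest of the 12 increases, the 6.77-fold of MEFV. Some of the genes left aside, which could not enter the 12, rose by more than 11.3-fold. CLEC7A, the beta-glucan receptor dectin-1, had 1.01, 0.929 and 1.10 CPM against 5.40, 4.73 and 6.14 CPM and was 5.16-fold lower. GPNMB and CLEC7A are also known from macrophages. The 15 macrophage markers summed to between 5.75 and 6.61 CPM in the HFD group and between 4.98 and 5.90 CPM in the ND group. Of the 2 tested, CD14 was not called. MARCO was called 2.47-fold higher, at 0.450 ± 0.0372 CPM against 0.163 ± 0.0618 CPM, a call lost in DESeq2 (adjusted p = 0.0912). C1QA, C1QB, C1QC, AIF1, TYROBP and VSIG4 had no count in any library. Macrophages of the mouse host were not measured.

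SERPIND1, the thrombin inhibitor heparin cofactor II, had 4, 3 and 7 counts in the HFD libraries and 52, 85 and 43 in the ND libraries, and was 10.5-fold lower. ITGA10, a collagen-binding integrin subunit, was 7.22-fold lower, and EFCAB12, a gene of motile cilia, 9.19-fold. IGFL1P1 and IGFL2-AS1, a pseudogene and a non-coding RNA of the IGF-like gene cluster on chromosome 19, were 10.1-fold and 5.84-fold lower. ALPP, placental alkaline phosphatase, was 4.69-fold lower, and its near-identical neighbour ALPG, which can share its reads, was lower as well. S100A5, TSNAXIP1 and the linker histone gene H1-3 were 4.92-fold, 4.78-fold and 4.52-fold lower. Most of these genes had fewer than 3 CPM even in the ND group.

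Counts of called members in the lists below stand beside 25.6% higher and 23.9% lower among all tested genes. In the top decile of genes by level these shares were 49.4% and 18.0%. Chemokine ligands had the highest median among the 43 pathway lists. PPBP, another CXCR2 ligand that is not in the list, was 4.78-fold higher below 1 CPM. Of 29 genes, 14 had enough counts, of which 10 were higher, 2 lower and 2 not called, with a median log2 fold change of 0.52 where the median of all tested genes was -0.012. The genes with the most counts were those of the CXCR2 ligands. CXCL1 had 199, 192 and 199 CPM in the HFD group against 100, 102 and 104 CPM in the ND group. CXCL8, which encodes interleukin-8, had 151, 160 and 151 CPM against 87.7, 86.5 and 86.5 CPM. CXCL3 had 120, 122 and 119 CPM against 61.9, 59.6 and 59.9 CPM. In all 3 genes every HFD library lay above every ND library, and the differences were 1.93-fold, 1.77-fold and 1.99-fold (adjusted p = 3.71e-12, 2.83e-11 and 3.71e-12). CXCL6 and CXCL5 were 2.03-fold and 3.01-fold higher, the latter at 1.74 ± 0.389 CPM against 0.570 ± 0.0909 CPM, and CXCL2 was 1.69-fold higher. Because CXCL1, CXCL2 and CXCL3 resemble each other closely, as do CXCL5 and CXCL6, part of their reads may have been assigned to the wrong copy. The interferon-induced ligands of CXCR3 were not called. CXCL10 had 6.75 ± 0.207 CPM against 6.31 ± 0.272 CPM (adjusted p = 0.442) and CXCL11 5.98 ± 0.291 CPM against 6.59 ± 0.025 CPM (adjusted p = 0.242), although their promoters also hold GGANTTTCC. The test of CXCL10 or CXCL11 against the CXCR2 ligands was not made. CCL20 and CCL28, which attract lymphocytes to mucosa, were called lower at 1.30-fold and 1.17-fold, and both calls were lost under 7 of the 13 alternatives.

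Among other cytokines and growth factors of inflammation, 12 of 21 tested genes were higher and 3 lower, with a median of 0.16. They included growth factors of myeloid cells. CSF3, which encodes G-CSF, had 23.5, 22.9 and 23.0 CPM in the HFD group against 9.97, 9.21 and 8.75 CPM in the ND group. CSF2, which encodes GM-CSF, had 21.0, 19.6 and 20.6 CPM against 8.17, 9.23 and 9.54 CPM. They were 2.48-fold and 2.27-fold higher. IL11 and LIF, cytokines that signal through the shared receptor subunit gp130, were 2.31-fold and 1.54-fold higher, and IL32, an inducer of other cytokines, 2.01-fold. The gene of gp130 itself, IL6ST, had 239, 244 and 244 CPM against 116, 117 and 115 CPM, a 2.09-fold difference (adjusted p = 8.16e-13). SOCS3, the feedback inhibitor of gp130 signaling, had 257, 264 and 267 CPM against 100, 109 and 94.6 CPM, a 2.59-fold difference (adjusted p = 1.17e-12). TNFSF15 moved the other way. It encodes TL1A, a cytokine of the tumor necrosis factor family that stimulates lymphocytes in gut inflammation, and had 7.24, 6.72 and 7.51 CPM against 31.2, 28.4 and 29.5 CPM, a 4.10-fold decrease (log2 fold change -2.04 ± 0.071, adjusted p = 1.96e-12). IL23A and the interleukin-1 receptor antagonist IL1RN were 1.25-fold and 1.24-fold lower, and the call of IL23A was lost without HFD replicate 3 (adjusted p = 0.0671).

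The list of NF-kB subunits, activators and feedback inhibitors was tested in full, and 29 of its 40 genes were higher and 2 lower, with a median of 0.29. The largest increases belonged to IRAK3 and TNIP3, both inhibitors of the pathway. The gene IRAK3, a kinase-like protein that dampens signaling of interleukin-1 and Toll-like receptors, had 12.0, 12.9 and 12.8 CPM in the HFD group against 5.40, 5.15 and 4.61 CPM in the ND group and was 2.48-fold higher. TNIP3, a partner of TNFAIP3, was 2.40-fold higher below 1 CPM, and TNFAIP8, which restrains cell death, 1.99-fold. TNFAIP2 and the ubiquitin ligase BIRC3 were 1.84-fold and 1.69-fold higher, and NFKBIA, which encodes the inhibitor I-kappa-B-alpha, 1.28-fold. The subunit genes themselves differed little, with log2 fold changes of 0.35 for REL, 0.25 for RELB, 0.16 for NFKB2 and 0.15 for RELA, all called higher. TAB1 and TAB2, which activate the kinase upstream of the pathway, were 1.32-fold and 1.14-fold lower.

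In the list of receptors for cytokines and microbial products, 17 of 39 tested genes were higher and 5 lower, with a median of 0.037 that became -0.073 when libraries were scaled by total counts. IL6ST was the member with the largest increase, and TNFRSF11B, the decoy receptor osteoprotegerin, was 2.74-fold lower, with 0.938 ± 0.153 CPM against 2.59 ± 0.391 CPM. Among eicosanoid genes 9 of 21 were higher and 3 lower. PTGS2, the inducible cyclooxygenase, was 1.32-fold higher and PTGES, the prostaglandin E synthase, 1.26-fold. ALOX5, the 5-lipoxygenase of leukotriene synthesis, varied more than other genes, with 4.91, 22.1 and 32.5 CPM in the HFD group and 10.9, 6.32 and 4.65 CPM in the ND group. The groups overlapped, and although it was called 2.82-fold higher (adjusted p = 0.00617), the call was lost without HFD replicate 3 (log2 fold change 0.841, adjusted p = 0.093) and in DESeq2 (adjusted p = 0.148). Of 48 interferon-stimulated genes 27 were higher and 4 lower (56.2% and 8.3%, against 25.6% and 23.9% of all tested genes), but by small amounts. Their median was 0.15 and became 0.041 with total counts. The largest difference was in DDX60, an RNA sensor, at 1.66-fold, while IFI35 and OAS1 were 1.31-fold and 1.25-fold lower. In complement and coagulation 15 of 26 tested genes were higher and 5 lower, with a median of 0.24. Complement C3 had 447, 420 and 433 CPM against 220, 226 and 220 CPM, a 1.95-fold difference. CLU, the complement inhibitor and chaperone clusterin, was 2.25-fold lower, with 21.3 ± 1.36 CPM against 47.5 ± 2.40 CPM.

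**Figure D3:**
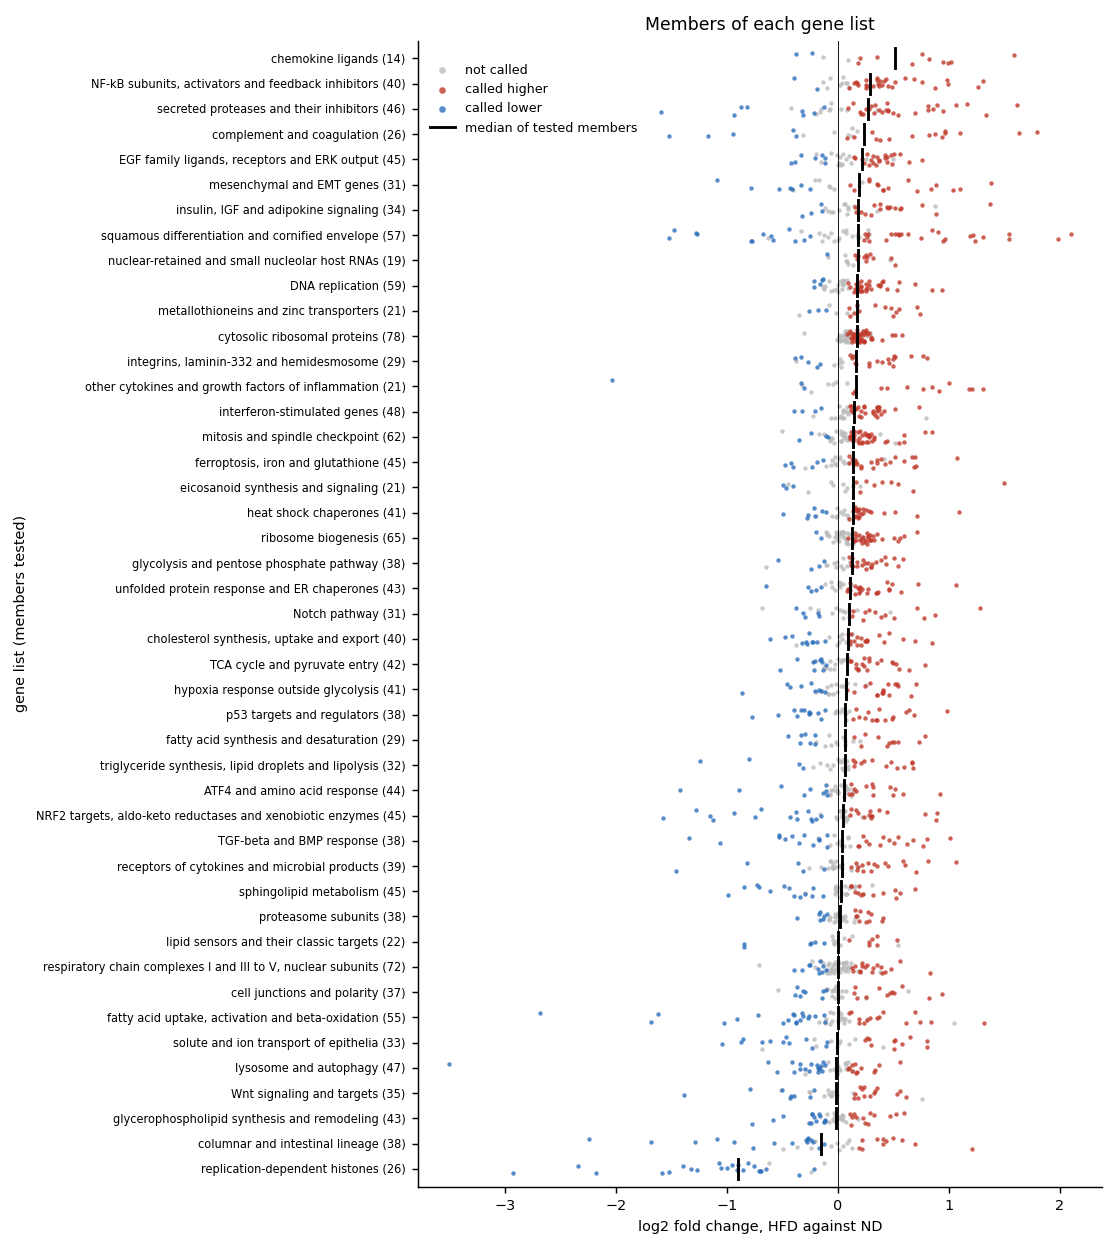
Each row is a gene list with the number of its tested members, and points are their log2 fold changes of the HFD group against the ND group, colored by the edgeR call, with a black line at the median. Of the lists drawn, chemokine ligands have the highest median (0.52) and replication-dependent histones the lowest (-0.90), while most lists lie near 0.

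Genes of squamous differentiation moved in both directions. Of 57 tested genes 25 were higher and 13 lower, 8 of them at least 2-fold higher and 4 at least 2-fold lower, with a median of 0.18. The largest increases were those of S100A8, S100A9 and ANXA8, and keratins and protease inhibitors were also among the higher members. KRT6A had 10.9, 10.5 and 10.6 CPM in the HFD group against 3.86, 3.45 and 3.77 CPM in the ND group. KRT17 had 251, 238 and 242 CPM against 124, 133 and 121 CPM. SLPI, an inhibitor of neutrophil elastase, had 77.2, 92.9 and 77.5 CPM against 39.0, 32.6 and 37.6 CPM. They were 2.92-fold, 1.93-fold and 2.28-fold higher, without overlap between the groups. KRT6A resembles other keratin 6 genes, so its reads may be shared. PI3, which encodes the elastase inhibitor elafin and lies next to SLPI on chromosome 20, was 2.48-fold higher, and KRT14, a keratin of basal cells, 2.35-fold. The members that were lower included the transcription factors SOX2 and TP63, which specify squamous cells, and components of the cornified layer. SOX2 had 1.58, 2.13 and 1.78 CPM against 4.80, 5.02 and 5.40 CPM and was 2.79-fold lower. TP63 was 1.59-fold lower, and SPRR1A, a precursor of the cornified envelope, 1.70-fold. DSG3 and DSG1, desmosomal cadherins of the deep and the upper squamous layers, were 2.32-fold higher and 2.87-fold lower, at no more than 1.29 CPM in either group.

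In the list of the columnar and intestinal lineage 11 of 38 tested genes were higher and 16 lower, with a median of -0.15. TSPAN8, a membrane protein of intestinal and gastric cells, had 7.10, 8.74 and 7.72 CPM in the HFD group against 21.3, 18.2 and 17.7 CPM in the ND group, and MUC13, a transmembrane mucin, 6.75, 5.63 and 6.35 CPM against 14.4, 12.5 and 13.5 CPM. Both were lower without overlap, 2.44-fold and 2.13-fold. CDX2, the transcription factor that sets intestinal identity, was 1.49-fold lower at 23.9 ± 0.785 CPM against 35.3 ± 0.520 CPM. CDH17 and VIL1, markers of the intestinal brush border and its cells, were 3.21-fold and 4.71-fold lower, the latter with no count in HFD replicate 1. MUC5AC, a mucin of gastric surface cells, was 1.70-fold lower. Against these, the simple keratins KRT8, KRT18 and KRT7 were called higher with log2 fold changes of 0.35, 0.41 and 0.40, and the epithelial transcription factors EHF and ONECUT2 were 1.62-fold and 2.31-fold higher. TFF1 was called 1.5-fold higher, a call lost without HFD replicate 3 (adjusted p = 0.0651). KRT19, the gene of the list with the most reads, had 7320 ± 14.0 CPM against 7080 ± 116 CPM (adjusted p = 0.148).

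**Figure D4:**
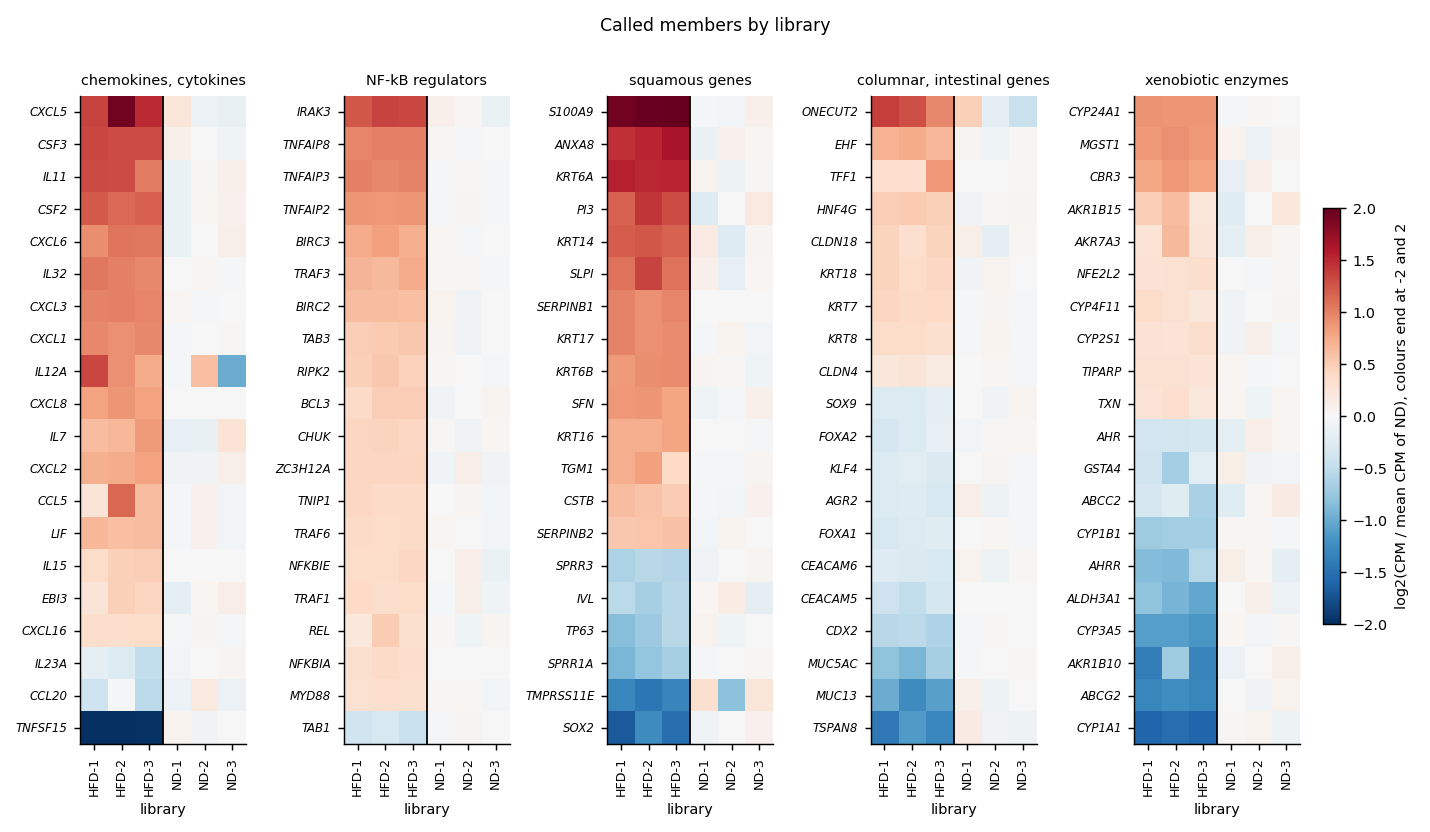
Each cell is the CPM of a library divided by the mean CPM of the ND group, as log2, for up to 20 called members per panel, those averaging 1 CPM or more with the largest changes, and colors end at -2 and 2. Replicates differ visibly in a few rows, such as TMPRSS11E with 6.48, 2.95 and 6.14 CPM and IL12A with 0.824, 1.26 and 0.419 CPM in the ND group.

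Among mesenchymal genes 16 of 31 tested were higher and 7 lower, with a median of 0.19. TGM2, tissue transglutaminase, which cross-links matrix proteins, had 431, 446 and 441 CPM in the HFD group against 164, 177 and 164 CPM in the ND group, a 2.60-fold difference (adjusted p = 3.47e-13). The transcription factor SNAI1 was 1.79-fold higher. Vimentin (VIM), the usual marker of mesenchymal cells, was called 2.14-fold higher but at 1.06 ± 0.239 CPM against 0.486 ± 0.123 CPM. ZEB1 was not called, at 3.62 ± 0.130 CPM against 3.14 ± 0.231 CPM. Thrombospondin-1 (THBS1) was 1.72-fold lower, the collagen COL12A1 2.12-fold lower below 1 CPM (not called in DESeq2, adjusted p = 0.0936), and E-cadherin (CDH1), the main adhesion molecule of epithelia, 1.24-fold lower. The 13 fibroblast markers summed to between 24.5 and 27.6 CPM in the HFD group and between 31.2 and 34.5 CPM in the ND group, nearly all of it COL1A1, and DPT had no count in any library. Their part in these values was not tested.

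Of 46 tested secreted proteases and inhibitors 28 were higher and 8 lower, and their median was 0.27. The plasminogen activators PLAU and PLAT were 1.93-fold and 2.24-fold higher, PLAU with 965, 900 and 961 CPM in the HFD group against 484, 508 and 469 CPM in the ND group. The stromelysin gene MMP10, in the same gene cluster as MMP7 on chromosome 11, was 3.02-fold lower, with 2.59, 2.35 and 2.78 CPM against 7.98, 7.66 and 8.14 CPM. MMP9, a gelatinase of leukocytes and tumors, was 2.53-fold higher below 1 CPM. In the list of integrins, laminin-332 and hemidesmosomes 18 of 29 genes were higher and 5 lower. The integrin subunit ITGAV was 1.74-fold higher, while COL17A1, a collagen of the hemidesmosome, was 1.31-fold lower. The list does not hold ITGA10. Genes of cell junctions and polarity had 12 of 37 higher and 8 lower, with a median of 0.0017 (-0.11 with total counts). CLDN12 was the member with the largest increase, at 1.92-fold.

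Signaling lists showed small shifts. Of 45 tested genes of EGF ligands, receptors and ERK output, 23 were higher and 7 lower, with a median of 0.22 and no member changed 2-fold. The list leaves out the EGF gene itself, which had 2.19, 2.35 and 2.36 CPM in the HFD group against 7.64, 7.22 and 5.96 CPM in the ND group and was 3.03-fold lower. The ligands EREG, HBEGF and TGFA had log2 fold changes of 0.76, 0.51 and 0.49. AP-1 genes went both ways, with 0.44, 0.42 and 0.48 for JUNB, FOSL1 and FOSL2. FOSB and JUND had -0.42 and -0.39 and were called lower. AREG had 441 ± 21.9 CPM against 442 ± 40.5 CPM. EGFR and ERBB2, the receptors, had log2 fold changes of -0.15 and -0.12, both called lower, but the call of ERBB2 was lost without a filter on counts (adjusted p = 0.0655 in edgeR), without HFD replicate 3 (0.0787) and without ND replicate 2 (0.0552). In the insulin, IGF and adipokine list 17 of 34 were higher and 4 lower, with a median of 0.18. The leptin receptor LEPR, which binds the hormone that fat tissue secretes in proportion to its mass, had 16.1, 16.4 and 14.0 CPM in the HFD group against 8.24, 9.84 and 8.98 CPM in the ND group and was 1.69-fold higher. IGFBP1, an IGF-binding protein repressed by insulin in the liver, was 1.85-fold higher. In the TGF-beta and BMP list 15 of 38 were higher and 13 lower, with FSTL3, an activin inhibitor, 2.01-fold higher and ID4, an inhibitor of differentiation factors, 2.08-fold lower below 1 CPM, a call of ID4 that was lost in DESeq2 (adjusted p = 0.141), without HFD replicate 3 (0.0812) and without ND replicate 2 (0.0633). In the Wnt list 14 of 35 were higher and 8 lower, and the lower genes included known targets of the pathway. RNF43, a receptor-removing ubiquitin ligase, was 2.61-fold lower, SP5 1.73-fold and AXIN2 1.35-fold. In the Notch list 13 of 31 were higher and 5 lower, and the higher genes included the targets NRARP at 1.83-fold, HES1 at 1.42-fold and HES2 at 2.42-fold. The medians of the TGF-beta and Notch lists, 0.042 and 0.10, became -0.068 and -0.0058 with total counts.

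Lists of lipid metabolism had members on both sides and medians near 0. In cholesterol synthesis, uptake and export 19 of 40 tested genes were higher and 11 lower, with a median of 0.092 (-0.018 with total counts, where 9 were higher). MSMO1 and SQLE, enzymes of cholesterol synthesis, were 1.80-fold and 1.62-fold higher, with SQLE at 82.7, 81.7 and 78.8 CPM in the HFD group against 49.3, 49.8 and 50.9 CPM in the ND group. In fatty acid synthesis and desaturation 11 of 29 were higher and 7 lower (37.9% and 24.1%, against 25.6% and 23.9% of all tested genes). The desaturase SCD was 1.40-fold higher. The acetyl-CoA carboxylase genes ACACB and ACACA were 1.36-fold and 1.27-fold lower. The groups overlapped for ACACA, and its call was lost in DESeq2 (adjusted p = 0.153) and without HFD replicate 3 (0.078 in edgeR). In triglyceride synthesis, lipid droplets and lipolysis 13 of 32 were higher and 4 lower. PLIN2, the coat protein of lipid droplets, was 1.45-fold higher, and the glycerol channel AQP3 was 1.74-fold lower, with 80.3 ± 0.781 CPM against 140 ± 4.95 CPM. The medians of these lists, 0.066 and 0.064, became -0.044 and -0.046 with total counts.

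Fatty acid uptake, activation and beta-oxidation had 20 of 55 genes lower and 15 higher, with a median of -0.0018. ECI2, a peroxisomal and mitochondrial isomerase of unsaturated fatty acids, had 27.6, 24.9 and 24.3 CPM in the HFD group against 10.5, 9.56 and 10.9 CPM in the ND group and was 2.5-fold higher. FABP5, the fatty acid-binding protein of epithelia, was 1.79-fold higher and the thioesterase ACOT7 1.67-fold. Some members with large decreases had few counts. The fatty acid transporter CD36 was called 3.20-fold lower at 0.207 ± 0.219 CPM against 0.624 ± 0.210 CPM, and that call was lost without HFD replicate 3 or ND replicate 1 (adjusted p = 0.0502 and 0.0627). The acyl-CoA thioesterase ACOT1 was 3.06-fold lower. Mitochondrial enzymes such as CPT2, ACADS and ACADM had log2 fold changes of -0.50, -0.45 and -0.34, and CPT1A, the entry step, 0.23, all called. Among lipid sensors and their targets 7 of 22 were higher and 6 lower, with the coactivator PPARGC1A and the uncoupling protein UCP2 1.79-fold and 1.80-fold lower. Glycerophospholipid genes had 13 of 43 higher and 14 lower and sphingolipid genes 13 of 45 higher and 13 lower. The 15 adipocyte markers summed to between 236 and 247 CPM in the HFD group and between 208 and 215 CPM in the ND group, mostly PNPLA2 and PPARG, and ADIPOQ, LEP, CIDEA and RETN had no count in any library.

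In glycolysis and the pentose phosphate pathway 23 of 38 tested genes were higher and 4 lower, with a median of 0.13, and 14 were higher with total counts. The largest was PGD, an NADPH-producing enzyme, at 1.51-fold, and LDHA and PFKFB3 were 1.23-fold and 1.31-fold higher, while the gluconeogenic enzyme FBP1 was 1.45-fold lower and the glucose transporter SLC2A1 1.12-fold. The TCA cycle list had 20 of 42 higher and 10 lower, led by GLUD1 at 1.72-fold, and the nuclear respiratory chain list 18 of 72 higher and 10 lower, led by CYCS, cytochrome c, at 1.78-fold. With total counts the lower genes of these lists numbered 17 and 28 and their medians changed from 0.083 and 0.0043 to -0.027 and -0.11. The number of lower respiratory chain genes was 5 without HFD replicate 3, 5 without ND replicate 3 and 4 in DESeq2. In the hypoxia list 17 of 41 were higher and 9 lower. DDIT4, an inhibitor of mTOR signaling, ERO1A, an oxidase of the endoplasmic reticulum, and BHLHE40, a transcriptional repressor, were 1.63-fold, 1.58-fold and 1.46-fold higher, and NRN1, neuritin, was 1.82-fold lower. CA9, the usual marker of low oxygen, had 2.14 ± 0.359 CPM against 1.83 ± 0.129 CPM, and VEGFA 265 ± 2.95 CPM against 259 ± 11.2 CPM, and neither was called.

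Several enzymes of xenobiotic metabolism were lower. In the list that joins them with NRF2 targets and aldo-keto reductases, 15 of 45 tested genes were higher and 15 lower, with a median of 0.043 (-0.068 with total counts), but 4 were at least 2-fold lower and none 2-fold higher. CYP1A1, the classic target of the aryl hydrocarbon receptor, had 14.4, 15.0 and 14.3 CPM in the HFD group against 43.7, 45.2 and 40.3 CPM in the ND group. CYP1B1, another target, had 66.2, 67.0 and 67.5 CPM against 110, 110 and 105 CPM. The receptor gene itself, AHR, had 73.6, 74.9 and 75.8 CPM against 83.9, 106 and 99.2 CPM. All 3 were lower without overlap, by 2.97-fold, 1.62-fold and 1.29-fold (adjusted p = 3.75e-12, 2.98e-10 and 0.000118). AHRR, the repressor of the receptor and also its target, was 1.68-fold lower, ALDH3A1 1.92-fold and the efflux pump ABCG2 2.42-fold. The NRF2 target NQO1 was 1.11-fold lower while MGST1, a glutathione transferase, and CYP24A1, which inactivates vitamin D, were 1.85-fold and 1.86-fold higher.

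Stress lists were mixed. In the unfolded protein response list 26 of 43 were higher and 5 lower, led by the chaperone CANX, calnexin, with 1170, 1190 and 1180 CPM in the HFD group against 573, 539 and 579 CPM in the ND group, and 13 were higher with total counts. In the heat shock list 24 of 41 were higher and 7 lower (10 higher with total counts), led by the mitochondrial chaperonin HSPD1 at 2.13-fold. In the list of ferroptosis, iron and glutathione genes 25 of 45 were higher and 6 lower (15 higher with total counts), with the transferrin receptor TFRC 2.11-fold higher and the ferritin heavy chain FTH1 1.10-fold lower with overlapping groups. The call of FTH1 was lost without HFD replicate 1 (adjusted p = 0.0911), without HFD replicate 2 (0.0735) and without ND replicate 3 (0.105). In the ATF4 list 14 of 44 were higher and 9 lower, and in the p53 list 16 of 38 were higher and 12 lower, with CDKN1A, MDM2 and BTG2 1.56-fold, 1.61-fold and 1.98-fold higher. Metallothioneins and zinc transporters had 13 of 21 higher and 3 lower. Lysosome and autophagy genes had 12 of 47 higher and 19 lower, with GPNMB as the single member changed 2-fold.

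Growth lists moved by small amounts in the higher direction. Of all tested genes 25.6% were higher and 23.9% lower. Of the top decile by level 49.4% were higher and 18.0% lower, with a median of 0.092. The part of expression level in these lists was not tested. In DNA replication 35 of 59 tested members were called higher and 5 lower, and the median was 0.17. In mitosis and the spindle checkpoint 38 of 62 were higher and 4 lower, with a median of 0.14. The cytosolic ribosomal proteins had 45 of 78 higher and none lower, with a median of 0.17, and ribosome biogenesis 31 of 65 higher and 2 lower, with a median of 0.13. The medians kept their sign with total counts, at 0.060, 0.033, 0.056 and 0.025, but the higher genes then numbered 17, 20, 11 and 20. GINS1 and MCM3, components of the replicative helicase, were 1.92-fold and 1.80-fold higher, and MKI67, the proliferation marker Ki-67, had 586, 563 and 604 CPM in the HFD group against 455, 466 and 482 CPM in the ND group, a 1.25-fold difference. FOXM1, a transcription factor of mitotic genes, was 1.28-fold lower. Proteasome subunits had 11 of 38 higher and 7 lower, and epithelial solute and ion transport genes 11 of 33 higher and 12 lower.

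The mRNAs of replication-dependent histones, which end in a stem-loop and normally carry no poly(A) tail, went against the replication enzymes. None of 26 tested genes was higher and 23 were lower, with a median of -0.90. H2AC6 had 23.8, 22.5 and 23.5 CPM in the HFD group against 39.1, 37.6 and 37.4 CPM in the ND group, and H1-2 7.02, 6.12 and 7.56 CPM against 15.1, 14.9 and 14.1 CPM. The groups did not overlap, and the genes were 1.63-fold and 2.10-fold lower. The study describes a capture of polyadenylated RNA, and the part of RNA preparation in these values was not tested. Calls also differed between other classes of transcripts. Of 19 tested nuclear-retained and small nucleolar host RNAs 11 were higher and 1 lower, with a median of 0.18. Of 2378 long non-coding RNAs 7.9% were higher and 24.6% lower, with a median of -0.18, whereas of 12860 protein-coding genes 31.2% were higher and 24.7% lower, with a median of 0.014. By level, 49.4% of the top decile of genes were higher and 18.0% lower, against 4.3% and 17.1% of the lowest decile. By exonic GC content, 39.6% of the lowest decile were higher and 15.2% lower, against 20.4% and 27.4% of the highest decile. Medians by GC decile lay between -0.065 and 0.087. Gene type, level and GC content are related to each other, and their parts in the results were not tested.

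**Figure D5:**
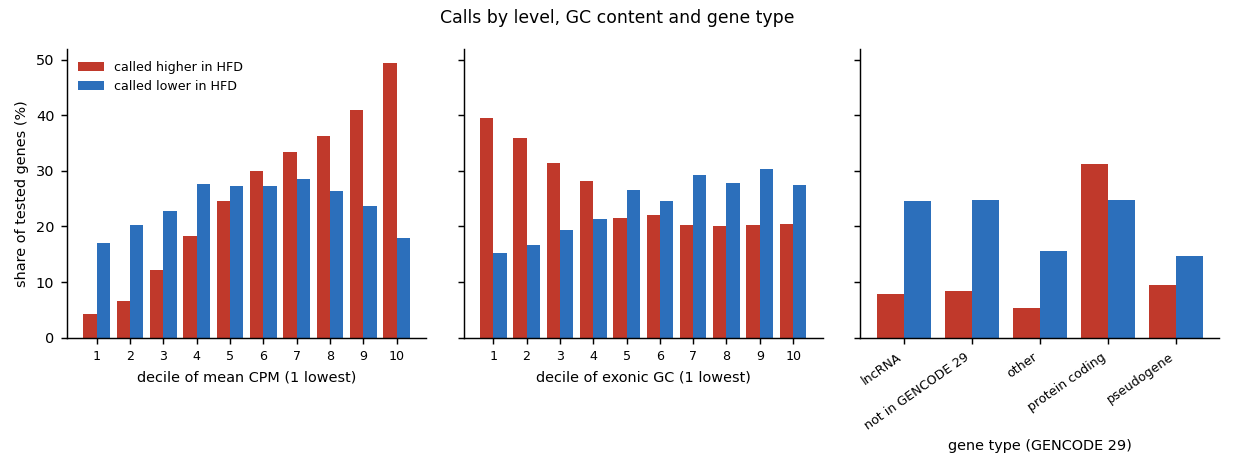
Bars give the percentage of tested genes called higher or lower in the HFD group by deciles of mean CPM, by deciles of exonic GC content and by gene type. The share higher rises from 4.3% in the lowest decile of CPM to 49.4% in the highest, and lncRNAs and pseudogenes are more often lower than higher.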

How the data were processed

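For 61860 Ensembl identifiers the authors deposited whole read counts that had not been normalized, and no comparison columns were used. The study's methods describe TRIzol extraction and poly(A) capture, while the labels name a column kit and a directional library kit, so whether counting used strand is not known, and overlapping or antisense genes are uncertain. The aligner, the counting tool and the annotation are not given in the sources used here. The submitters' processing notes name the builds hg38 and mm10 without their roles. All 37 mitochondrial genes were listed at 0. Gene names came from an Ensembl name table and GENCODE 29, which holds 94.3% of the identifiers and gave types, GC content and length. Promoter sequences are from RefSeq.

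The filterByExpr function (at least 10 counts, at least 15 in total) selected the genes, which were scaled by TMM and tested with glmQLFit and glmQLFTest of edgeR 4.0.16 in R 4.3.3, HFD against ND, with Benjamini-Hochberg adjustment over 17012 genes and a threshold of 0.05. CPM are TMM-scaled counts-per-million values, folds are fitted values, and each SE was taken as the size of the fitted log2 change over the square root of its F statistic. With 3 against 3 libraries an exact permutation test cannot go below p = 0.1, so none was used. Simulated counts had 200 changed genes among 17012, over 6 draws. The test recovered 45.7% of genes changed 1.2-fold, 65.7% at 1.5-fold, 87.7% at 2-fold and 99.7% at 4-fold, and 9.49% of its calls were false. Far more genes were called in the data, so these shares do not carry over to this comparison. No pair of replicates agreed within sampling noise (chi-square per gene 2.04 to 4.49, where sampling gives about 1).

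The 43 pathway lists of 29 to 78 genes, 2 lists of RNA preparation and 12 marker lists were written from general knowledge, and the members, lists and tests were chosen with earlier results of these data known. Lists are described by counts and medians without a test. The text names the 12 largest changes in each direction (mean of at least 1 CPM, groups not overlapping), the 8 genes with most reads in each direction at 1.5-fold or more, and in each list up to 3 members with the largest called change in each direction and the one with most reads. 6 genes were left aside, and some members of the lists are not reported here. Other names (ANXA2P2, ALPG, EGF, PPBP, CXCL10, CXCL11 and further members of lists) were chosen after their values were seen. The alternatives were other scalings (DESeq2 1.42.0 size factors, upper quartile, total counts), other filters, DESeq2's Wald test, a replicate block and each library left out.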

Additional observations from a re-analysis of the deposited data

How the results depend on the processing

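Scaling moved the split of the calls most. With total counts 2800 genes were higher and 6415 lower, so that 30.4% of the calls were in the higher direction, with upper-quartile scaling 39.8%, and with TMM 51.7%. Total counts shifted the median log2 fold change of all genes by -0.11 and upper-quartile scaling by -0.058, so small differences are relative to the scaling. Under total counts MCM7 turned to -0.0147 and was not called. PSAP, which was not called with TMM factors, turned to -0.0931 and was called lower (adjusted p = 0.0225 in edgeR). The medians of the hypoxia, ATF4, p53, sphingolipid, proteasome and lipid sensor lists, all between 0.0052 and 0.078, also fell below 0. Without a filter on counts 330 genes were higher and 735 lower by 2-fold or more, and with at least 10 counts in every library 189 were lower, since genes with few counts then enter or leave the test. Leaving out each library in turn gave 3881 to 4270 genes higher, 3343 to 3709 lower, 220 to 265 higher by 2-fold or more and 460 to 524 lower by 2-fold or more. Replicate numbers did not pair the libraries (correlation of deviations 0.0142, -0.0275 and 0.0683), and the replicate block gave 4312 genes higher, 3953 lower, 213 higher by 2-fold and 456 lower by 2-fold. DESeq2's Wald test gave 3863 higher and 2736 lower. Over the 343 genes that the naming rule covers and 13 alternatives, 4235 of 4431 values were counted as the same, 182 lost the call and 12 gained it. A further 2 changed sign with a call in either fit. Changes of sign where neither fit had a call were counted as the same. The simulation changed only 200 genes, whereas 8415 of 17012 were called here. Its 45.7% recovery of 1.2-fold changes therefore does not measure how far depth and replicate number limit small differences in these data.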

Other observations

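Some genes with large differences lay next to each other on a chromosome, an observation made after the values were seen. Ordering the tested genes by their GENCODE 29 position, 97 of the 652 genes called at 2-fold or more had a neighbour called at 2-fold or more in the same direction, in 44 runs, 15 of them higher and 29 lower. Runs in the higher direction included PGLYRP4, S100A9 and S100A8 on chromosome 1, PI3 and SLPI on chromosome 20, PPBP and CXCL5 on chromosome 4 and CGB5 and CGB8, near-identical chorionic gonadotropin genes, on chromosome 19. Runs in the lower direction included ABCA9-AS1, ABCA9 and ABCA10 on chromosome 17, PTPRR and TSPAN8 on chromosome 12, and IGFL4, IGFL2-AS1 and IGFL1P1, with a transcript known only by its clone name, on chromosome 19. Some of these are overlapping, antisense or near-identical genes whose reads cannot be told apart without strand. The runs also include SERPINB4 with SERPINB3 and IL1A with IL1B, which are left aside here. No test of neighbourhood was made and no expected number was computed, so whether 97 is unusual is not known.

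Several genes above 100 CPM without a place in the gene lists were at least 2-fold higher. BMAL2, a transcription factor of the circadian clock, had 448, 445 and 450 CPM in the HFD group against 207, 210 and 205 CPM in the ND group. PTP4A2, a phosphatase linked to growth, had 266, 266 and 275 CPM against 118, 112 and 121 CPM, and MAPK6, an atypical MAP kinase, 158, 162 and 157 CPM against 76.9, 72.0 and 73.1 CPM. The actin-binding peptide TMSB10 was 2.18-fold higher. CD274, which encodes the checkpoint ligand PD-L1, was 1.26-fold higher (adjusted p = 2.09e-06).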
